A study of Mus musculus with 36 samples.

Results

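Antisense non-coding RNAs are transcribed from the DNA strand opposite to another gene and carry no long reading frame. In the counts analysed here, 2746 of 53421 annotated genes belonged to the class named antisense, and 2100 of those had a read in at least 1 library. The RNAs described below are the 158 antisense genes with a mean raw count of 30 or more over all 36 libraries. The count of reads therefore chose them, and their being detected is not a result. The last genes inside the limit were *Gm30025*, *4833413G10Rik* and *Gm13091*, with mean counts of 31.03, 30.6 and 30.3. The first genes outside it were *Gm17112*, *1700058P15Rik* and *Flicr*, with 29.9, 28.9 and 28.7.

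The cells were 1 conditionally immortalised mouse line of fibroblast-like chondrocytes, so that all libraries share that line. They received pooled siRNA directed at *Ift88* (IFT88siRNA) or pooled siRNA without a target (NT), both at 50 nM in the sample labels. They were then kept in medium alone (0 h) or given IL-1β at 10 ng/ml for 1, 2, 4, 8 or 24 h. Medium alone was sampled only at 0 h, so effects of IL-1β and of time in culture cannot be told apart. IFT88 is a protein of intraflagellar transport, which builds and maintains the cilium, and IL-1β is an inflammatory cytokine. Each of the 12 conditions had 3 replicates. Nothing in the sources says that replicates were separate cultures, so the p-values measure the spread between these samples, which may be technical.

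Antisense transcripts are described by how they lie against the gene on the other strand. Head-to-head pairs start close together and run apart, often from 1 stretch of open chromatin that fires in both directions. Tail-to-tail pairs converge and overlap at their ends, and other antisense RNAs lie inside an intron or across exons of their partner. Some are known to recruit or block chromatin regulators, to interfere with polymerases on the opposite strand or to serve as hosts for microRNAs, and for most nothing is known. Many are spliced, polyadenylated and kept in the nucleus at low copy number. Inflammatory cytokines switch on NF-κB and AP-1 factors within minutes and interferon-response genes some hours later, and non-coding transcripts near such genes are known to respond too.

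Total counts on genes were between 19337022 and 38304127 per library. Values after ± below are standard errors of log2 changes, derived from the change and its F statistic in edgeR. They include the spread between replicates as well as counting error. *Ift88* itself was measured at 9.16, 8.65 and 9.35 CPM (counts scaled to the size of the library, with TMM scaling) in the NT libraries at 0 h and at 2.59, 2.88 and 2.82 CPM in the IFT88siRNA libraries. The groups did not overlap. Of the chondrocyte markers, *Sox9* averaged 11.3 TPM and *Col2a1* 8.35 TPM in NT at 0 h, while *Acan* averaged 0.126 TPM and *Col9a1* 0.0439 TPM, near 0. The fibroblast markers *Col1a2* and *Pdgfrb* averaged 771 and 81.5 TPM. Of 5 macrophage markers, *Adgre1* was listed at 0, *Csf1r*, *Ptprc* and *Itgam* averaged 0.0435, 0.109 and 0.114 TPM, and *Cd68*, a lysosomal protein that other cells make too, averaged 10.7 TPM. The endothelial marker *Pecam1* averaged 0.226 TPM. In bulk RNA of this kind, fewer cells making a transcript and less of it per cell cannot be told apart.

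The 158 antisense RNAs together took between 0.0847% and 0.110% of the counts of a library. Their median mean count was 56.5 reads, and 41 had a mean of 100 or more. The 5 highest took 47.3% of their counts. Each of 87 had a mean of 30 or more in every condition, while 19 had a mean under 30 in NT at 0 h, the lowest being 4.67 reads, and so passed the limit through conditions in which they were higher. Their exonic length ran from 388 to 93092 bases with a median of 2167.5. Per kilobase of exon they were low: the median was 1.43 CPM per kb in NT at 0 h, and in 137 of 157 pairs the antisense RNA stood below its partner, by a median ratio of 6.73. By name, 136 carry a Gm, AC or Rik identifier, and 15 are named as the opposite strand or antisense of a gene.

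For 157 of them a protein-coding gene on the opposite strand could be given as partner in the GENCODE annotation of GRCm38. A start overlap, head to head, was found for 60 and an end overlap, tail to tail, for 40. Another 31 lay inside the partner with overlapping exons, 15 lay inside a partner intron, 5 spanned the partner, and 6 diverged from it without overlap within 5 kb. *Fbxl12os* had no such partner. The start lay within 1 kb of the partner's start in 43 cases.

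How reads were counted bears on each of these genes. The methods give default settings for the counter, which ignore strand and drop reads that touch exons of more than 1 gene, and the strandedness of the libraries is not given in the sources used here. Reads from an antisense RNA and from unspliced RNA of its partner then cannot be told apart where the antisense exon lies in a partner intron. Of the 158, 130 shared some exonic bases with another gene, 8 shared 50% or more, 70 had 50% or more of their exonic length in sequence that is intronic for another gene, and 63 had 50% or more free of any other gene. Among protein-coding genes, the count per TPM and kilobase was lower in those covered by an opposite-strand exon than in those without one. The median shift was -0.26 on the log2 scale for 2211 genes with up to 10% overlap, against -0.05 for the uncovered share of the exon, and -0.26 for 745 genes with 10 to 25%, against -0.24. It was -0.62 for 304 genes with 25 to 50% overlap, against -0.55 for the uncovered share, and -1.32 for 63 genes with more, against -1.29. For antisense RNAs the same median went from 0.31 without overlap to -0.06 at 25 to 50% and -0.54 for the 7 with more. The share of partner pre-mRNA in any one antisense count was not tested.

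The 3 most abundant antisense RNAs moved little. *Brip1os* (11:86201370-86304443, plus strand, tail to tail with the Mediator subunit gene *Med13*) was measured at 187, 191 and 186 CPM in NT at 0 h, and its largest change was -0.22 ± 0.04 (log2, SE) at 8 h. *Gm15564* (16:35966752-35983230, minus strand) was measured at 104, 102 and 107 CPM, with 0.40 ± 0.08 as its largest change, at 2 h. Neither passed the fold threshold of 1.5. All of the exonic length of *Gm15564* is intronic for another gene, and it lies tail to tail with *Parp9*, an interferon-induced gene of the ADP-ribosyltransferase family whose own change at 4 h was 2.65 ± 0.06. *Tug1* (11:3639785-3649673, minus strand), a conserved nuclear RNA studied for its part in gene silencing, stood at 93.4, 105 and 104 CPM and changed by -0.26 ± 0.05 at most. *Gm4524* (16:25956475-25960342, plus strand), the fourth, runs tail to tail with the collagen prolyl hydroxylase gene *P3h2*. It stood at 42.6, 42.4 and 44.7 CPM at 0 h, at 63.9, 58.0 and 62.5 CPM at 1 h and at 29.6, 26.2 and 24.2 CPM at 24 h, so that the 3 conditions did not overlap. It fell by 0.70 at 24 h (edgeR, adjusted p = 5.4e-09), when *P3h2* stood at -0.63 ± 0.06. Its value of 0.50 ± 0.06 at 1 h was under the fold threshold.

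Most of these antisense RNAs changed over the IL-1β time course in NT cells. Over the 5 time points tested together against 0 h with edgeR's quasi-likelihood test, 96 of 158 passed a Benjamini-Hochberg adjusted p of 0.05 and a fold change of 1.5, or 60.8%. Of all 16048 genes tested, 50% did. The lincRNAs and TEC genes (transcripts awaiting experimental annotation) with the same minimum count gave 67.4% and 62.1%, and protein-coding genes 47.2%. Of the 96, 48 were higher at some time (30.4% of the 158, against 27.2% of all genes), 63 were lower at some time (39.9% against 30.9%), and 15 were both. The other 62 comprised 25 with an adjusted p under 0.05 but too small a fold and 37 without one. Restricted to the 41 antisense RNAs with a mean count of 100 or more, 20 were called. Of the 139 with a mean of 30 or more in NT at 0 h, 80 were called. The limit on the mean over all conditions admits RNAs low at 0 h that rose, which bears on the shares called and higher.

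The changes were spread over the time course. Compared with 0 h at single time points, 24 were higher and 18 lower at 1 h (against 9.22% and 9.45% of all genes), 27 and 28 at 2 h (against 13% and 14.3%), 30 and 24 at 4 h (against 16.3% and 12.4%), 22 and 21 at 8 h (against 11.8% and 7.87%), and 14 and 25 at 24 h (against 6.61% and 9.71%). The largest change was a rise in 43 and a fall in 53. The rises were largest at 1 h in 6, at 2 h in 13, at 4 h in 16, at 8 h in 5 and at 24 h in 3. The falls were largest at 1 h in 3, at 2 h in 16, at 4 h in 17, at 8 h in 7 and at 24 h in 10. Over all called genes, 47.3% had a rise as the largest change. A rise of 4-fold or more was seen in 13 antisense RNAs and a fall of that size in 2, while 39 stayed between 1.5-fold and 2-fold. The limit on the mean over all conditions lets in RNAs that were low at 0 h and rose, so rises and falls cannot be compared in these numbers. Of the 80 called RNAs with a mean of 30 or more in NT at 0 h, 28 had a rise and 52 a fall as the largest change, and 4 rises and 2 falls were of 4-fold or more. A minimum at 0 h drops RNAs that were low there and rose, so rises and falls cannot be compared in these numbers either.

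**Figure D1:**
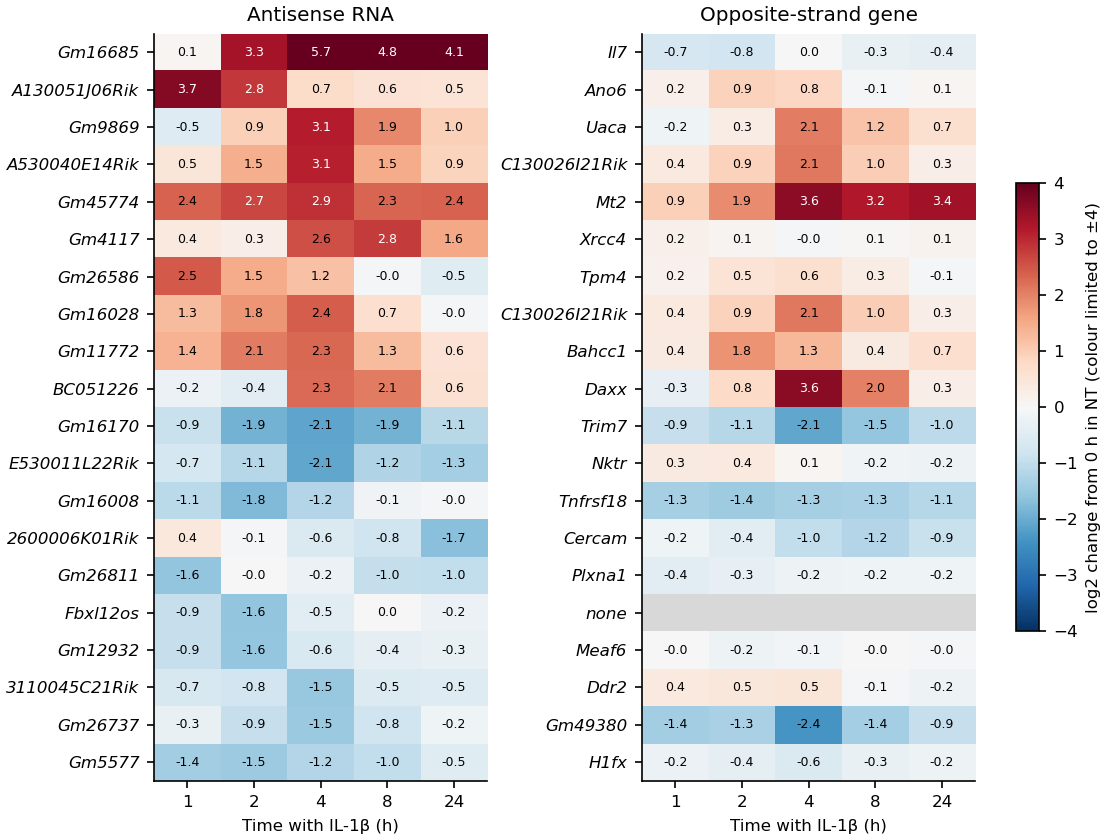
Log2 change from 0 h in NT at each of the 5 times with IL-1β (columns) for the 10 largest rises and 10 largest falls among called antisense RNAs (left rows) and for the gene opposite each (right rows), in red for higher and blue for lower, with the value in each cell. *Gm16685* reached 5.75 at 4 h while its partner *Il7* stood at 0.03, whereas *Gm45774* and *BC051226* had partners that rose by more than they did.

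The strongest rise belonged to *Gm16685* (3:7612705-7690001, plus strand), which starts head to head with *Il7*, the gene of a lymphocyte growth factor, and has 93.4% of its exonic length free of other genes. Its raw counts in NT at 0 h were 1, 9 and 4 reads, or 0.0422, 0.371 and 0.177 CPM. At 2 h it stood at 2.24, 2.14 and 1.73 CPM, and at 4 h at 10.9, 10.1 and 11.7 CPM. Every library from 2 h on was above every library at 0 h. The change at 4 h was 5.75 ± 0.24 on the log2 scale (edgeR, adjusted p = 1.7e-16), a value that rests on few reads at 0 h, and at 24 h it was still 4.14 ± 0.28. *Il7* itself fell by 0.66 at 1 h and by 0.78 at 2 h and stood at 0.03 ± 0.09 from its start at 4 h, when *Gm16685* peaked.

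*A130051J06Rik* (15:95787856-95791642, minus strand) was the fastest large riser. It overlaps the start of *Ano6*, which encodes a calcium-activated lipid scramblase, and 69.4% of its exonic length is free of other genes. It was measured at 0.549, 0.536 and 0.576 CPM at 0 h, at 7.31, 6.20 and 8.07 CPM at 1 h, and at 0.793, 0.872 and 1.06 CPM at 4 h. The 1 h libraries stood far above those at 0 h and 4 h, and at 4 h the change was 0.72 ± 0.35 (adjusted p = 0.079). The change at 1 h was 3.68 ± 0.24 (adjusted p = 3.6e-12), while *Ano6* changed by 0.20 ± 0.04 at 1 h and rose by 0.91 ± 0.04 at 2 h. The *A130051J06Rik* value rests on a mean of 13 reads in NT at 0 h.

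**Figure D2:**
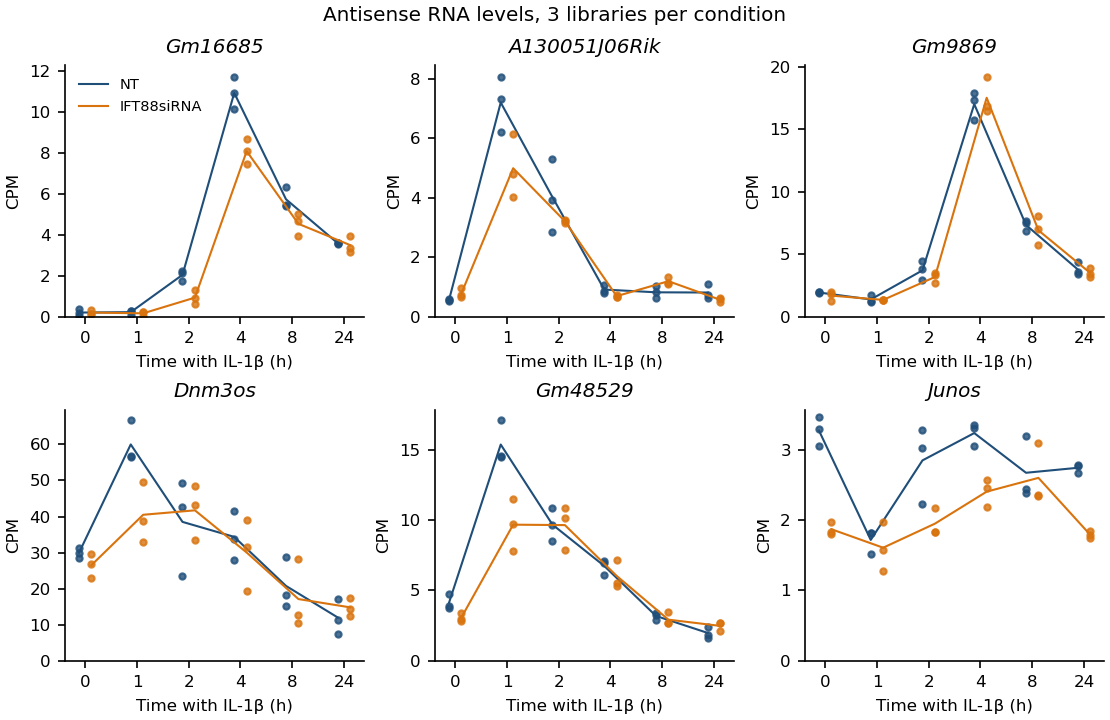
Level of 6 antisense RNAs in CPM (vertical axis, from 0) in each library (points, 3 per condition) at each of the 6 times of IL-1β, for NT in blue and IFT88siRNA in orange, with lines through the means. *A130051J06Rik*, *Dnm3os* and *Gm48529* peak at 1 h in NT and *Gm16685* and *Gm9869* at 4 h, while *Junos* dips at 1 h in NT and starts lower in IFT88siRNA.

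Several large rises lay inside a partner that rose with them. *Gm9869* (9:60821552-60838200, minus strand), wholly within an intron of *Uaca*, a gene linked to apoptosome assembly, stood at 1.94, 1.90 and 1.95 CPM at 0 h and at 17.9, 15.8 and 17.3 CPM at 4 h. Its change was 3.14 ± 0.13 (adjusted p = 2.5e-16) and that of *Uaca* was 2.05 ± 0.06. *A530040E14Rik* and *Gm16028*, both inside *C130026I21Rik*, rose by 3.12 ± 0.18 and 2.42 ± 0.26 at 4 h, and *C130026I21Rik* by 2.11 ± 0.06. *Gm11772*, in an intron of the chromatin gene *Bahcc1*, rose by 2.31 ± 0.22 at 4 h, when *Bahcc1* stood at 1.34 ± 0.07. For these 4 genes, as for the other antisense RNAs described here, a count cannot be assigned to one strand.

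Other large rises had a partner that changed little at the same time. *Gm4117* (13:89739460-89887166, plus strand) lies in sequence that is intronic for other genes and meets the DNA repair gene *Xrcc4* at its end. It was measured at 0.507, 0.371 and 0.532 CPM at 0 h and at 3.34, 3.57 and 3.04 CPM at 8 h, a change of 2.81 ± 0.28 (adjusted p = 7.5e-09), and *Xrcc4* changed by 0.05 ± 0.09. *Gm26586*, inside the tropomyosin gene *Tpm4*, went from 2.07, 2.1 and 1.82 CPM to 10.8, 11.5 and 10.7 CPM at 1 h. That was a change of 2.46 ± 0.24, against 0.16 ± 0.04 for *Tpm4*, which reached 0.65 ± 0.04 at 4 h. In both cases every treated library at the peak stood above every library at 0 h.

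Joint rises were also seen at paired starts. *BC051226* (17:33908044-33909317, minus strand) diverges from *Daxx*, which encodes a histone H3.3 chaperone, and shares no base with it. It stood at 1.39, 1.15 and 1.15 CPM at 0 h, at 0.991, 0.774 and 1.02 CPM at 2 h, and at 6.17, 5.55 and 5.90 CPM at 4 h. The change at 4 h was 2.25 ± 0.16 (adjusted p = 1.3e-11), beside 3.61 ± 0.12 for *Daxx*. *Gm45774* (8:94170748-94173412, minus strand), head to head with the metallothionein gene *Mt2*, was at 0.971, 0.659 and 1.02 CPM at 0 h and at 5.94, 7.39 and 6.59 CPM at 4 h. It had already risen by 2.36 ± 0.29 at 1 h, when *Mt2* stood at 0.94 ± 0.06, and at 4 h the values were 2.92 ± 0.27 and 3.58 ± 0.05.

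Among the falls, *E530011L22Rik* (9:121754662-121759943, minus strand) went from 2.79, 3.21 and 2.70 CPM to 0.679, 0.734 and 0.637 CPM at 4 h, a change of -2.06 ± 0.21 (adjusted p = 8.5e-09), with no overlap between the conditions. Its tail-to-tail partner *Nktr*, a cyclophilin-related gene, stood at 0.09 ± 0.07. *Gm26737* (9:44112923-44121960, plus strand) had deeper counts, at 16.0, 15.2 and 16.1 CPM at 0 h and 6.28, 5.18 and 5.26 CPM at 4 h. It changed by -1.50 ± 0.09 (adjusted p = 4.6e-13) and was back to -0.18 ± 0.08 at 24 h. *3110045C21Rik*, 92.1% free of other genes and tail to tail with the collagen receptor gene *Ddr2*, stood at -1.53 ± 0.20 at 4 h while *Ddr2* stood at 0.50 ± 0.04.

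Some other falls stood beside a partner fall of similar size and others beside a smaller change, and *Fbxl12os* had no partner. *Gm16170* stood at -2.1 ± 0.35 at 4 h beside -2.08 ± 0.10 for the ubiquitin ligase gene *Trim7*, and *Gm16008* at -1.76 ± 0.33 at 2 h beside -1.43 ± 0.14 for the receptor gene *Tnfrsf18*, which it spans. *2600006K01Rik* fell latest, by 1.66 on the log2 scale at 24 h, where *Cercam* stood at -0.88 ± 0.09. *Gm26811* was lowest at 1 h (-1.59 ± 0.35), and *Fbxl12os* (-1.57 ± 0.21), *Gm12932* (-1.55 ± 0.35) and *Gm5577* (-1.45 ± 0.23) at 2 h. The partners of *Gm26811*, *Gm12932* and *Gm5577*, which are *Plxna1*, *Meaf6* and *H1fx*, stood at -0.44, -0.19 and -0.39 at those times. *Gm12932* was measured at 1.15, 0.319 and 0.711 CPM at 2 h, and without replicate 2 it was no longer called.

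*Dnm3os* (1:162217623-162225550, plus strand) is the antisense RNA here whose product is best known. It lies for 97.2% of its length in an intron of the dynamin gene *Dnm3*, is needed for normal skeletal growth in mice, and carries the hairpins of microRNAs of the miR-199a and miR-214 families. The mature sequences in RefSeq (GRCm38.p6) are shown since they are what the transcript delivers, with the seed (bases 2 to 8) in capitals, and the 4 seeds differ from each other.
miR-199a-5p: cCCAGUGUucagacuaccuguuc
miR-199a-3p: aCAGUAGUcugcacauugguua
miR-214-5p: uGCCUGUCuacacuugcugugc
miR-214-3p: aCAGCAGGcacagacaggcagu
In NT, *Dnm3os* stood at 29.9, 28.6 and 31.4 CPM at 0 h, at 56.7, 56.6 and 66.7 CPM at 1 h, at 42.6, 23.6 and 49.3 CPM at 2 h, and at 7.51, 11.4 and 17.2 CPM at 24 h. It was highest at 1 h and lowest at 24 h, with replicates that spread widely from 2 h on. The change was 1.0 ± 0.22 at 1 h (adjusted p = 0.00040) and -1.30 ± 0.24 at 24 h (adjusted p = 0.00011), and *Dnm3* stood at 0.04 ± 0.09 and -0.80 ± 0.09. The mature microRNAs were not measured in these libraries.

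*Gm48529* (9:45930112-45933738, plus strand) also rose early and ended below its start. It lies inside *Tagln*, which encodes the actin-binding protein transgelin, with 48.9% of its exonic length over exons of other genes. It was measured at 3.88, 4.74 and 3.72 CPM at 0 h, at 14.5, 14.5 and 17.1 CPM at 1 h and at 1.87, 1.63 and 2.44 CPM at 24 h. The change was 1.89 ± 0.12 at 1 h and -1.05 ± 0.16 at 24 h. *Tagln* stood at 0.45 ± 0.09 and -1.51 ± 0.11, with its highest value of 1.15 ± 0.09 at 4 h.

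*Junos* (4:95051534-95167318, plus strand) moved against its partner. It starts head to head with *Jun*, which encodes a subunit of AP-1, and 83.1% of its exonic length is free of other genes. It stood at 3.29, 3.46 and 3.06 CPM at 0 h and at 1.81, 1.52 and 1.82 CPM at 1 h, with no overlap, a change of -0.94 ± 0.17 (adjusted p = 5.4e-05). *Jun* rose by 2.39 ± 0.05 at the same time. At 4 h *Junos* stood at 3.06, 3.30 and 3.35 CPM again.

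Across the pairs, antisense RNAs and their partners shared a direction more often than not. Both could be tested in 149 pairs, in which 91 antisense RNAs and 68 partners (45.6%) were called over time in NT, 54 times together. Of protein-coding genes with the same minimum count as the antisense RNAs, 47.2% were called, so partners were called about as often as other such genes. At the time of the antisense RNA's largest change, 73 of the 91 had a partner with the same sign, and 36 had a partner past both thresholds. Of these 36, 35 shared the sign, and the exception was *Junos* with *Jun*. No such shares were taken for genes outside the pairs. Whether paired genes shared a sign more often than other genes was therefore not tested. Over the 149 pairs, the changes of the antisense RNA and its partner had a Pearson r of 0.25 at 1 h (Spearman's rank coefficient 0.37), 0.47 at 2 h (0.46), 0.58 at 4 h (0.64), 0.46 at 8 h (0.48) and 0.52 at 24 h (0.44). These are descriptions across genes measured in the same libraries, and genes are not independent replicates.

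By arrangement of the pair, r at 4 h was 0.86 for the 14 RNAs inside a partner intron and 0.81 for the 30 inside a partner with shared exonic bases, 0.50 for the 59 head-to-head pairs and 0.42 for the 37 tail-to-tail pairs. It was 0.69 for the 68 RNAs with 50% or more of their exonic length in introns and 0.45 for the 58 with 50% or more free of other genes. It was 0.98 for the 6 divergent pairs, which share no base. By Spearman's coefficient the order of arrangements at 4 h was another, with 0.68 for head-to-head pairs and 0.61 for RNAs inside a partner intron. For the intron-located and free groups, Spearman's coefficient was 0.72 and 0.56 at 4 h and 0.49 and 0.53 at 8 h. The Pearson r of these 2 groups was 0.33 and 0.16 at 1 h and 0.60 and 0.34 at 2 h. It was 0.47 and 0.46 at 8 h and 0.68 and 0.43 at 24 h. The part of partner reads in these values was not tested. Among the 58, 29 called RNAs of 37 still had a partner with the same sign.

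**Figure D3:**
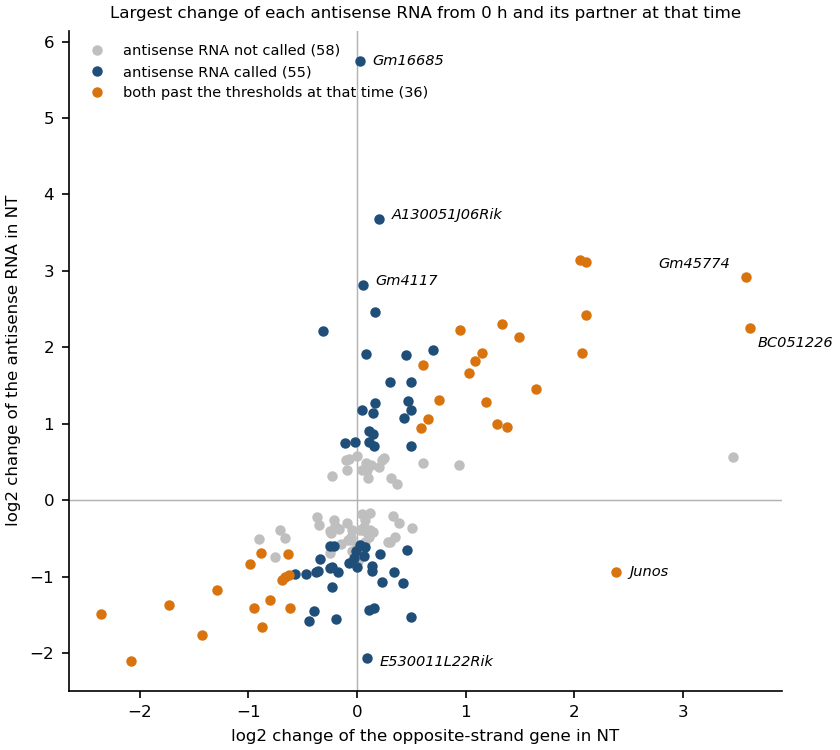
Largest log2 change from 0 h of each antisense RNA in NT (vertical axis) against the log2 change of its opposite-strand gene at the same time point (horizontal axis), 1 point per pair for 149 pairs, in grey where the antisense RNA was not called, in blue where it was and in orange where both were past the thresholds at that time. Of the 36 orange points, 35 lie in the quadrants of equal sign and *Junos* alone lies in the other.

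Motifs near the starts were searched in RefSeq windows (GRCm38.p6) of 300 bases around an annotated start, most of which lie before it. On their own strand, 75 of the 158 had such a window, 97 windows in all. The κB consensus bound by NF-κB was found in 11.3% of these windows and in 8.46% of all 32851 windows in the table, and the AP-1 consensus TGANTCA in 8.25% and 7.81%. The interferon-response element (ISRE, searched as GAAA, any 2 bases and GAAA), which was added after the changes were seen, was found in 5.16% and 3.44%. The CRE motif TGACGTCA, added likewise, was found in 0 member windows and 1.79% of all windows. Both strands were searched for each. A match is a run of letters and no evidence of binding.

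The windows of 3 RNAs are shown, with the motif in capitals. For *A130051J06Rik*, the strongest riser at 1 h, both windows shown hold AP-1 letters and lie upstream of the span that GENCODE gives the gene, and another window of the gene at chr15:95790119-95790418 held none of these motifs.
*A130051J06Rik*, chr15:95804412-95804711, minus strand: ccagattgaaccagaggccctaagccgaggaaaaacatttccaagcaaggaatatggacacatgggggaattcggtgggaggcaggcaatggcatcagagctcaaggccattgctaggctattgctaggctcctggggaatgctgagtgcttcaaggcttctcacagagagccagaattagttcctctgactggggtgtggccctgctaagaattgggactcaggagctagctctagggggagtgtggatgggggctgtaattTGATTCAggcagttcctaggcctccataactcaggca
*A130051J06Rik*, chr15:95794296-95794595, minus strand: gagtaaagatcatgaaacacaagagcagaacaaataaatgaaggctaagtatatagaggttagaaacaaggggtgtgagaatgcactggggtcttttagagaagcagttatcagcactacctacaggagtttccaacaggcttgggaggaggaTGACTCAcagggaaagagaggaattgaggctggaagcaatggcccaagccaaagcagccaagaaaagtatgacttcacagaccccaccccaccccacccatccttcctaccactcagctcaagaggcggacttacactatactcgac
For *Junos*, which fell as *Jun* rose, both windows shown hold AP-1 letters and belong to starts inside the gene. Its windows at chr4:95065123-95065422, chr4:95075386-95075685, chr4:95092040-95092339 and chr4:95143815-95144114 held none of these motifs. The *Junos* window that shares bases with one of *Jun* is not among these, and its motifs are not given.
*Junos*, chr4:95094563-95094862, plus strand: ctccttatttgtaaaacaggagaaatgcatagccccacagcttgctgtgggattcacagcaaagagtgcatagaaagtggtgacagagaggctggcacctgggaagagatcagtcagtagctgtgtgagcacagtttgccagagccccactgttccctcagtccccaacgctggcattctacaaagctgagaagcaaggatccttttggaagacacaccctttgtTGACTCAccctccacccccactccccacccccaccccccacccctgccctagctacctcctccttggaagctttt
*Junos*, chr4:95147236-95147535, plus strand: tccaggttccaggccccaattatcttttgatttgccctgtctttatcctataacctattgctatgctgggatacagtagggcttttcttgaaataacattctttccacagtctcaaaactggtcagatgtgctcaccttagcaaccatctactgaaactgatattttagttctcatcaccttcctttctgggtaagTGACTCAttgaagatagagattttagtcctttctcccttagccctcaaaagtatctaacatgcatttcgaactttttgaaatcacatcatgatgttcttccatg
For *Gm4117*, which peaked at 8 h beside a partner that changed little, the interferon-response letters stand as their reverse complement within a run rich in T, upstream of the GENCODE span.
*Gm4117*, chr13:89733447-89733746, plus strand: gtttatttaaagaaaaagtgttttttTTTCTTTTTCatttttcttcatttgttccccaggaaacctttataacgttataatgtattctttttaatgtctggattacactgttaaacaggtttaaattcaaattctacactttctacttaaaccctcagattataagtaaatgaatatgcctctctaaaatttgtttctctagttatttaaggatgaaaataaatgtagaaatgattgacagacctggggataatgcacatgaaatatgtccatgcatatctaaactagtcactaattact
In all, 11 antisense RNAs had a window that shares bases with a window of the partner. Among them, windows of *BC051226* and *Daxx* share 234 bases, those of *Map2k3os* and *Map2k3* 286, and those of *Junos* and *Jun* 194. Of the pairs given here, the first 2 moved in the same direction and the third in opposite directions, and the other pairs are not described.

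In cells transfected with IFT88siRNA, the same test over time called 105 of the 158 antisense RNAs, or 66.5%, against 48.2% of all genes. The NT and IFT88siRNA libraries are separate. Of the NT calls, 88 were called here too, which is 91.7% of the 96 and 83.8% of the 105. At the time of the largest NT change, 95 of the 96 had the same sign in IFT88siRNA cells, and the change was smaller in 66 (68.8%). Over the 7860 genes called in NT and tested here, it was smaller in 66.6%, and in both cases the time point had been chosen on NT.

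Comparing IFT88siRNA with NT directly, few antisense RNAs differed, and those that did were nearly all lower. Over the 6 time points tested together, 15 of 158 were called, or 9.49% against 5.19% of all genes, each of them lower, where 4.02% of all genes were. An unadjusted p under 0.05 was reached by 52. Without replicate 1 the count was 6, and without replicate 3 it was 29. Among the 15, *Junos* and *D030025P21Rik* had the smallest adjusted p (1.6e-05 and 7.3e-05), and the others included *Gm16685*, *Map2k3os*, *Tnk2os*, *Gm26586* and *Gm45774*. Of their partners, 14 were tested and *Ltbp2* and *Exoc3l4* were called, where 4.18% of protein-coding genes with the same minimum count were.

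Before IL-1β, at 0 h, 11 of 157 antisense RNAs differed (7.01%, against 2.23% of all genes), and 10 of these were lower and 1 higher (1.56% and 0.674% of all genes were). *Junos* was measured at 3.29, 3.46 and 3.06 CPM in NT and at 1.81, 1.83 and 1.98 CPM in IFT88siRNA, with no overlap, a difference of -0.81 ± 0.15 (adjusted p = 0.00047). *Jun* stood at -0.50 ± 0.04, below the fold threshold. *Gm12264*, inside *Mprip*, differed by -0.84 ± 0.21 (adjusted p = 0.0075), and *Gm37768*, tail to tail with *Acbd3*, by -0.82 ± 0.21 (adjusted p = 0.0078). The 1 higher RNA was *Gm46212*, at 1.94, 1.94 and 1.6 CPM in NT and 2.45, 3.87 and 2.4 CPM in IFT88siRNA, or 0.66 ± 0.19 (adjusted p = 0.017). The call of *Gm46212* was lost without replicate 2 or replicate 3, with DESeq2 and in each setting on TPM values. The calls of *Gm12264* and *Gm37768* were lost without replicate 3, with DESeq2 and on unfiltered TPM values. That of *Gm12264* was also lost without replicate 1, on filtered TPM values with a pseudocount of 1 and in a model of all 36 libraries. Of the 9 partners of the lower RNAs that were tested, 0 were called, where 1.43% of protein-coding genes were. At that share, so few partners cannot show whether partners differed from other genes. Without replicate 3 the count of antisense RNAs called at 0 h was 4, and DESeq2 gave 5.

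The largest number of differences was found at 1 h. All 22 antisense RNAs called, of 157 tested, were lower in IFT88siRNA, or 14.0%, where 2.66% of all genes were called and 2.47% were lower. The same share was 12.9% for lincRNAs, 22.1% for TEC genes and 1.31% for protein-coding genes of the same minimum count. The 22 differences ran from -1.08 to -0.60 with a median of -0.75. *Gm16617*, inside *Arhgef40*, was measured at 2.19, 2.47 and 2.56 CPM in NT and at 0.968, 1.61 and 0.822 CPM in IFT88siRNA, a difference of -1.08 ± 0.23 (adjusted p = 0.0042). *Gm26648*, inside *Nub1*, differed by -1.04 ± 0.25 (adjusted p = 0.0082) and *4930512H18Rik*, at the start of the actin-bundling gene *Palld*, by -0.95 ± 0.28 (adjusted p = 0.027). In these 3 the highest IFT88siRNA library was below the lowest NT library, but each lost its call without replicate 3 and on TPM values. *Gm26648* and *4930512H18Rik* also lost it without replicate 1 and in a model of all 36 libraries, and *4930512H18Rik* with DESeq2. The count was 5 without replicate 1, 13 without replicate 3, 29 without replicate 2 and 10 with DESeq2, and on TPM values it was 0 or 1.

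Several RNAs that rose early with IL-1β reached a lower level at 1 h in IFT88siRNA. *Gm48529* stood at 14.5, 14.5 and 17.1 CPM in NT and at 7.78, 11.5 and 9.74 CPM in IFT88siRNA (-0.67 ± 0.11, adjusted p = 0.00084), and *Gm26586* at 10.8, 11.5 and 10.7 CPM against 5.47, 8.67 and 5.59 CPM (-0.74 ± 0.14, adjusted p = 0.0015). In neither did the groups overlap. *Dnm3os* stood at 56.7, 56.6 and 66.7 CPM against 33.1, 49.7 and 38.7 CPM. Its difference of -0.57 ± 0.10 (adjusted p = 0.0012) was just under the fold threshold, and the same held for *A130051J06Rik* at -0.54 ± 0.14 (adjusted p = 0.017).

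The partners of the 22 were not chosen by a fold, so the sizes of the differences in the 2 lists cannot be compared. Each partner was tested at 1 h, and 1 was called, where 1.44% of protein-coding genes were: *Ltbp2*, which encodes a latent TGF-β binding protein, at 147, 157 and 169 CPM in NT and 70.5, 83.7 and 94.3 CPM in IFT88siRNA, or -0.93 ± 0.07 (adjusted p = 5.4e-07). Its head-to-head antisense RNA *D030025P21Rik* (12:84875769-84879755, plus strand) was measured at 3.26, 2.47 and 2.75 CPM against 1.47, 1.68 and 1.77 CPM, a difference of -0.78 ± 0.18 (adjusted p = 0.0070), and was lower at 0 h too (-0.62 ± 0.14, adjusted p = 0.0038). The 22 partners had a median difference of -0.14, from -0.93 to 0.27, and 16 were below 0. Apart from *D030025P21Rik*, *Gm26648* was the one RNA called at both 0 and 1 h, out of 31 called at either.

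**Figure D4:**
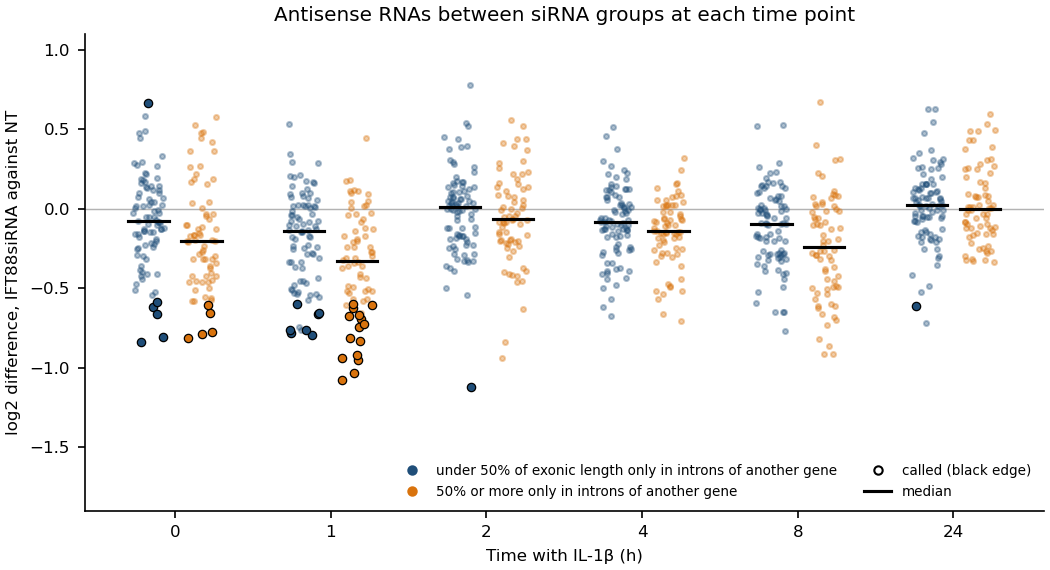
Log2 difference between IFT88siRNA and NT of each antisense RNA (1 point each, vertical axis) at each of the 6 times of IL-1β, split by whether 50% or more of its exonic length lies in introns of another gene (orange) or not (blue), with black edges for called RNAs and black bars for medians. At 1 h the intron-located RNAs have a median of -0.33 and 15 called lower, and at 24 h both groups centre near 0.

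The shift at 1 h went through most of the class, called or not. Of the 157 tested, 74.5% were below 0 with a median of -0.24, while all genes divided evenly (49.9% below 0). At 0 h, 66.2% were below 0 (median -0.13), at 2 h 53.8% (-0.01), at 4 h 69.0% (-0.10), at 8 h 70.3% (-0.15) and at 24 h 46.8% (0.01). At 1 h the RNAs with 50% or more of their exonic length in introns had 81.4% below 0, a median of -0.33 and 15 of 70 called lower. Those with 50% or more free of other genes had 67.7%, -0.13 and 5 of 62. Other non-coding classes were shifted too: 84.3% of TEC genes were below 0 with a median of -0.37, 73.2% of lincRNAs with a median of -0.20, and 83.3% of genes of the class sense_intronic, which are annotated within introns of a gene on their own strand, with a median of -0.40. Of protein-coding genes 48.3% were below 0, with a median of 0.01.

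Summed levels per library moved the same way. The sense_intronic genes together stood at 90.4, 96.1 and 95.0 CPM in NT at 1 h and at 63.2, 78.7 and 68.0 CPM in IFT88siRNA, and at 76.6, 74.9 and 71.2 CPM against 63.5, 64.2 and 59.6 CPM at 0 h. At both times the groups did not overlap. The intron-located antisense RNAs together stood at 386, 373 and 382 CPM in NT at 1 h against 305, 342 and 330 CPM, and at 317, 303 and 321 CPM against 298, 318 and 288 CPM at 0 h. Those free of other genes stood at 597, 594 and 609 CPM against 553, 556 and 568 CPM at 1 h. The part of intronic RNA in the lower antisense counts was not tested.

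**Figure D5:**
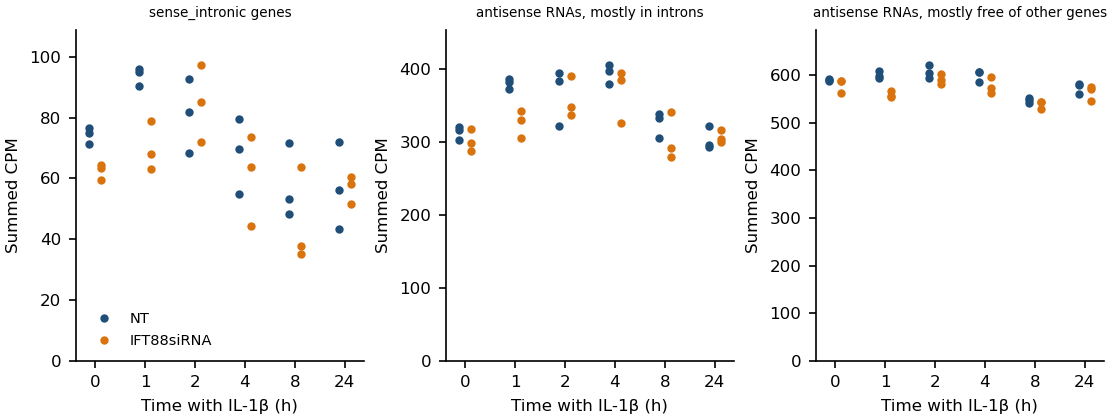
Summed CPM per library (points, 3 per condition, vertical axes from 0) at each of the 6 times of IL-1β for sense_intronic genes (left), antisense RNAs with 50% or more of their exonic length in introns of another gene (middle) and antisense RNAs with 50% or more free of other genes (right), in NT (blue) and IFT88siRNA (orange). At 1 h the IFT88siRNA libraries lie below the NT libraries in all 3 panels, and in IFT88siRNA at 8 h the sense_intronic sums run from 35.3 to 63.7 CPM.

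Single libraries stood apart in these sums. In NT at 2 h the sense_intronic sum was 68.3 CPM in replicate 2 and 81.9 and 92.6 CPM in the others, and the intron-located antisense RNAs were at 323 CPM there and at 395 and 384 CPM in the others. In NT at 24 h replicate 1 had 43.3 CPM of sense_intronic RNA against 56.3 and 71.9 CPM. In IFT88siRNA at 8 h replicates 1 and 2 had 35.3 and 37.7 CPM against 63.7 CPM in replicate 3. The spread of *Dnm3os*, *Tnk2os* and *Gm26811* within those conditions had the same libraries low.

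From 2 h on, few antisense RNAs differed between the siRNA groups. At 2 h 1 of 158 was called (0.496% of all genes were), and 14 had an unadjusted p under 0.05. It was *Gm16685*, at 2.24, 2.14 and 1.73 CPM in NT and at 1.29, 0.595 and 0.887 CPM in IFT88siRNA, a difference of -1.12 ± 0.27 (adjusted p = 0.049) that was not called without any one replicate. At 4 h, near its peak, it stood at 10.9, 10.1 and 11.7 CPM against 7.46, 8.11 and 8.66 CPM, or -0.44 ± 0.10 (adjusted p = 0.027, under the fold threshold). At 4 h and 8 h 0 of 158 were called by edgeR and by DESeq2 (0.432% and 0.692% of all genes were by edgeR), with 16 and 12 at an unadjusted p under 0.05. Without replicate 3, 20 were called at 8 h. At 24 h 1 was called (1.15% of all genes were): *Junos*, at 2.77, 2.79 and 2.67 CPM against 1.78, 1.85 and 1.75 CPM, or -0.61 ± 0.15 (adjusted p = 0.018). This call was lost without replicate 2 or replicate 3, with DESeq2 and on TPM values.

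A different response to IL-1β between the siRNA groups, tested as the difference of the changes from 0 h, was called for 1 of 158 antisense RNAs (1.2% of all genes were), while 21 had an unadjusted p under 0.05. It was *Gm48529*, with an adjusted p of 0.033. Its change from 0 h in IFT88siRNA minus that in NT was -0.24 at 1 h, 0.41 at 2 h, 0.27 at 4 h, 0.31 at 8 h and 0.74 at 24 h. At 24 h it stood at 1.87, 1.63 and 2.44 CPM in NT and at 2.65, 2.69 and 2.1 CPM in IFT88siRNA, where the groups overlapped. The call was lost without replicate 1, 2 or 3.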

How the data were processed

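RNA was measured by poly(A) paired-end sequencing in 36 libraries, 3 for each of 12 conditions. The authors aligned reads with HISAT2 2.1.0 to GRCm38 and deposited whole-number counts per Ensembl gene, made with featureCounts (Subread 1.6.3) at default settings, unnormalised. They also deposited TPM values estimated with Salmon 0.9.1, which are normalised for transcript length and depth. The sample labels give 50 nM of siRNA and the study's methods another amount.

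Samples were grouped by their labels. Counts were filtered by edgeR 4.0.16 (R 4.3.3, filterByExpr), scaled by TMM and tested over all genes with its quasi-likelihood F-test and Benjamini-Hochberg adjustment. A gene was called at an adjusted p under 0.05 and a fold change over 1.5. NT over time, IFT88siRNA over time, IFT88siRNA against NT at each time and over the time course, and the difference in response were fitted. CPM values use TMM scaling. Library totals of 19337022 to 38304127 set the counting precision, and a member at a mean of 30 reads is measured coarsely. Overlap with other genes and partners came from GENCODE (GRCm38), and promoter windows and microRNAs from RefSeq (GRCm38.p6).

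Alternatives were DESeq2 1.42.0, RLE or upper-quartile scaling, no count filter, no fold threshold, a replicate block, limma 3.58.1 on log2(TPM + 1) or log2(TPM + 0.1) with and without a filter of 0.1 TPM in 3 libraries, higher count minimums, members with under 10% exon overlap, 1 model of all 36 libraries, and leaving out each replicate. The fitting was tested on simulated data. No 2 replicates agreed within sampling noise, with chi-square per degree of freedom from 1.71 to 10.9.

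The genes named were the 5 highest by mean count, the 10 largest rises and 10 largest falls in NT, the 3 largest differences each way at each time, the called responses, members named for another gene, partners, and neighbours of the count limit. The members, lists and tests were chosen with earlier results of these data known. *Dnm3os*, *Gm48529*, *Junos* and *D030025P21Rik* are described at greater length after their values were seen.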

Additional observations from a re-analysis of the deposited data

Results flagged for a closer look

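*Gm48529*, inside the transgelin gene *Tagln*, was the 1 antisense RNA whose change with IL-1β differed between the siRNA groups by a test of the difference itself (edgeR quasi-likelihood, adjusted p = 0.0334). Its values were lower in IFT88siRNA at 0 h, at 2.96, 2.85 and 3.42 CPM against 3.88, 4.74 and 3.72 CPM, and the difference in change from 0 h ran from -0.24 at 1 h to 0.74 at 24 h. It was not called when any one replicate number was left out, nor with limma on TPM values. Of its exonic length 48.9% overlaps exons of other genes, and the strand its reads came from was not tested.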

How the results depend on the processing

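The counts over time held best. NT calls stayed at 93 to 98 and IFT88siRNA calls at 91 to 111 of 158 when a replicate was left out. Among members with a mean count of 100 or more they were 20 and 20, and among those with under 10% exon overlap 41 and 44. Counts of differences between the siRNA groups moved more, and the cause was not tested beyond the smaller lists themselves. Over the course (15 called) they were 35 with no filter, 26 with no fold threshold, 2 and 6 with limma on log2(TPM + 1) and log2(TPM + 0.1), 2 on TPM with no filter, 2 at a mean of 100 or more, 8 with under 10% overlap and 6 to 29 without a replicate. At 0 h (11) they were 5 with DESeq2, 28 with no fold threshold, 2, 3 and 1 on TPM in the same order, 1 at a mean of 100 or more, 3 with under 10% overlap, 5 in a model of all 36 libraries and 4 to 14 without a replicate. At 1 h (22) they were 10 with DESeq2, 1, 1 and 0 on TPM, 4 at a mean of 100 or more, 7 with under 10% overlap, 8 in a model of all 36 libraries and 5 to 29 without a replicate. At 2 h (1) they were 0 with RLE scaling, 2 with no filter, 3 with no fold threshold, 0, 0 and 0 on TPM, 0 at a mean of 100 or more, 0 at an NT 0 h mean of 30 or more and 0 to 0 without a replicate. At 4 h (0) they were 1 with no filter and 1 with no fold threshold. At 8 h (0) they were 9 with no filter, 2 in a model of all 36 libraries and 0 to 20 without a replicate. At 24 h (1) they were 0 with DESeq2, 3 with no filter, 4 with no fold threshold, 0, 0 and 0 on TPM, 0 at a mean of 100 or more, 2 in a model of all 36 libraries and 0 to 4 without a replicate. The differing response (1) gave 11 with no filter, 3 with no fold threshold, 0 and 0 on TPM with a pseudocount of 1, with and without a filter, 0 with under 10% overlap and 0 to 1 without a replicate. Of the named members' own values, 515 kept their side of the thresholds, 67 lost a call, 10 gained one and 0 reversed. Same-numbered replicates did not pair: their deviations correlated from -0.133 to 0.223, and 2 of 18 pairs passed 0.1. A replicate block gave 97 calls in NT, 104 in IFT88siRNA, 18 over the course, 11 at 0 h, 25 at 1 h, 2 at 2 h, 0 at 4 h, 0 at 8 h, 1 at 24 h and 2 for the response. Few reads per member limit small differences.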

Other observations

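Several antisense RNAs named after the gene on their other strand changed with IL-1β in NT. *Tnk2os*, mostly within introns of the kinase gene *Tnk2*, stood at 3.72, 3.54 and 3.19 CPM at 0 h and at 8.92, 4.05 and 10.9 CPM at 2 h, a change of 1.18 ± 0.25 (log2, SE, edgeR adjusted p = 0.00021), and *Tnk2* stood at 0.49 ± 0.05. *Map2k3os*, which diverges from the stress kinase gene *Map2k3* without overlap, went from 2.41, 1.61 and 2.30 CPM to 4.28, 4.14 and 4.22 CPM at 2 h, or 1.0 ± 0.15 beside 1.29 ± 0.04 for *Map2k3*. In IFT88siRNA at 1 h *Tnk2os* and *Map2k3os* differed from NT by -0.73 ± 0.14 and -0.76 ± 0.20.

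*Dhx58os* (11:100687417-100697520, plus strand) runs tail to tail with *Dhx58*, which encodes an RNA sensor of the RIG-I family. It was measured at 2.74, 2.72 and 2.75 CPM at 0 h, at 5.32, 3.37 and 6.22 CPM at 2 h and at 1.16, 1.67 and 1.05 CPM at 24 h. It thus rose by 0.85 at 2 h and fell by 1.08 at 24 h, while *Dhx58* peaked at 4 h with 2.11 ± 0.06. *Emx2os*, 94.7% free of other genes beside the homeobox gene *Emx2*, rose by 1.07 at 8 h (adjusted p = 2.3e-05), after *Emx2* had its highest value of 1.15 ± 0.10 at 2 h, and lost its call with limma on TPM values. *Sp3os*, head to head with the transcription factor gene *Sp3*, stood at -0.88 ± 0.18 at 4 h while *Sp3* stood near 0. *Rab10os*, *Tmem147os* and *Hoxb5os* were not called.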
